A study of Mus musculus with 2 samples.

Results

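The histocompatibility and antigen-processing genes of the mouse were described in heart from long sequencing reads. The members were the protein-coding genes whose name begins with H2-, together with B2m, Tap1, Tap2, Tapbp and Cd74, in the GENCODE M21 annotation. The rule took 39 of 55536 annotated genes, of which 22028 are protein-coding. It uses names and gene types and no measured value, and 21 of the 39 had at least 1 read. The samples were hearts of female B6CASTF1/J mice at 2 months of age, the F1 cross of the inbred C57BL and CAST backgrounds, and were not treated. The labels gave 1 group, heart, with 2 replicate libraries made from 2 µg of total RNA each, so the comparisons were those between the libraries and those between genes and models within them. The sample descriptions numbered the animals 3 and 4, whereas the text on the libraries named animal 3 for both and the donor identifier was the same. Whether 2 animals were sampled is not settled by the labels, and all tests below then measure only the counting error between these 2 libraries.

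Class I histocompatibility molecules show peptides from inside the cell to cytotoxic T cells. A heavy chain of the H2-K, H2-D, Q, T or M region pairs with beta-2-microglobulin (B2m) in the endoplasmic reticulum, where the transporter Tap1/Tap2 delivers peptides and tapasin (Tapbp) holds the empty molecule near it. Class II molecules are pairs of an alpha and a beta chain (the A pair H2-Aa and H2-Ab1, and the E pair) that show peptides from taken-up proteins to helper T cells. They travel with the invariant chain Cd74 and exchange its last fragment for peptide with the help of the DM molecule (H2-DMa with H2-DMb1 or H2-DMb2), which the O molecule (H2-Oa with H2-Ob) restrains. In most tissues class I genes are expressed in nearly all nucleated cells, and class II genes mainly in macrophages, dendritic cells and B cells.

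Replicate 1 had 905154 reads in total, 859191 of them on annotated genes. Replicate 2 had 745375, with 707758 on annotated genes. Levels are reads per 1000000 reads on annotated genes (CPM). A long read stands for 1 cDNA molecule, so CPM was not divided by length unless said. A single read equals 1.16 CPM in replicate 1 and 1.41 in replicate 2. Where a gene had no read, its upper limit is taken as 3 reads, or 3.49 CPM in replicate 1 and 4.24 in replicate 2. No molecular identifiers mark the reads, which therefore need not be independent molecules, and all intervals, limits and p-values cover counting error only. Of the markers of the labelled tissue, those of cardiomyocytes held 38641 and 33671 reads, those of fibroblasts 1290 and 1042, and those of endothelial cells 638 and 503. Markers of lymphoid tissue and thymus held 0 and 3 reads. Reads of the CAST copies were placed on the mm10 reference, which is a C57BL genome, and the part of strain differences in any count or model below was not tested.

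The stretches of sequence on which the structures below turn are shown here from GENCODE M21 transcripts, on mm10. In the H2-D1 exon 3 the capitals mark the 114 bases left out of an unannotated model. In H2-K1 the capitals mark the 27 bases at the start of exon 8 that H2-K1-201 has and H2-K1-205 lacks, after exon 7. In Tapbp the capitals mark the 3 bases at the start of exon 7 that Tapbp-201 has and Tapbp-206 lacks. The H2-D1 exon lies at 17:35263839-35264114 on the plus strand, the H2-K1 stretch between 33996477 and 33996654 on the minus strand of chromosome 17, and the Tapbp junction between 33926488 and 33926659 on its plus strand.
H2-D1 exon 3: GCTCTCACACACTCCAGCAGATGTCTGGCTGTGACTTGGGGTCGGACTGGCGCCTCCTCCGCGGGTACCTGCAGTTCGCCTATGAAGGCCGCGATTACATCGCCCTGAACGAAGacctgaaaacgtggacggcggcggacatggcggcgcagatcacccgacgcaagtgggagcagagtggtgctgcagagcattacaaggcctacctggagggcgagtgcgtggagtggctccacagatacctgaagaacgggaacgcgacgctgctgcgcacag
H2-K1 exon 7 and start of exon 8: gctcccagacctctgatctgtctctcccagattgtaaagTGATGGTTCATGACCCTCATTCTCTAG
Tapbp junction of exons 6 and 7: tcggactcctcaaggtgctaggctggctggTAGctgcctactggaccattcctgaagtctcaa

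Together the 39 members held 921 reads in replicate 1 and 792 in replicate 2, which is 1072 and 1119 CPM (1095 ± 33.3 CPM, SD, n = 2, as for every mean below). The library with fewer reads thus had the slightly larger share. H2-D1, a classical class I heavy chain, stood first, and the invariant chain Cd74 and tapasin followed well below it. The 18 members without a read were 11 of the 12 M-region genes, 4 of the 6 Q-region genes, H2-T3, the class II beta chain H2-Eb2 and H2-Oa. A read was found for 20 members in replicate 1, for 20 in replicate 2 and for 19 in both.

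**Figure D1:**
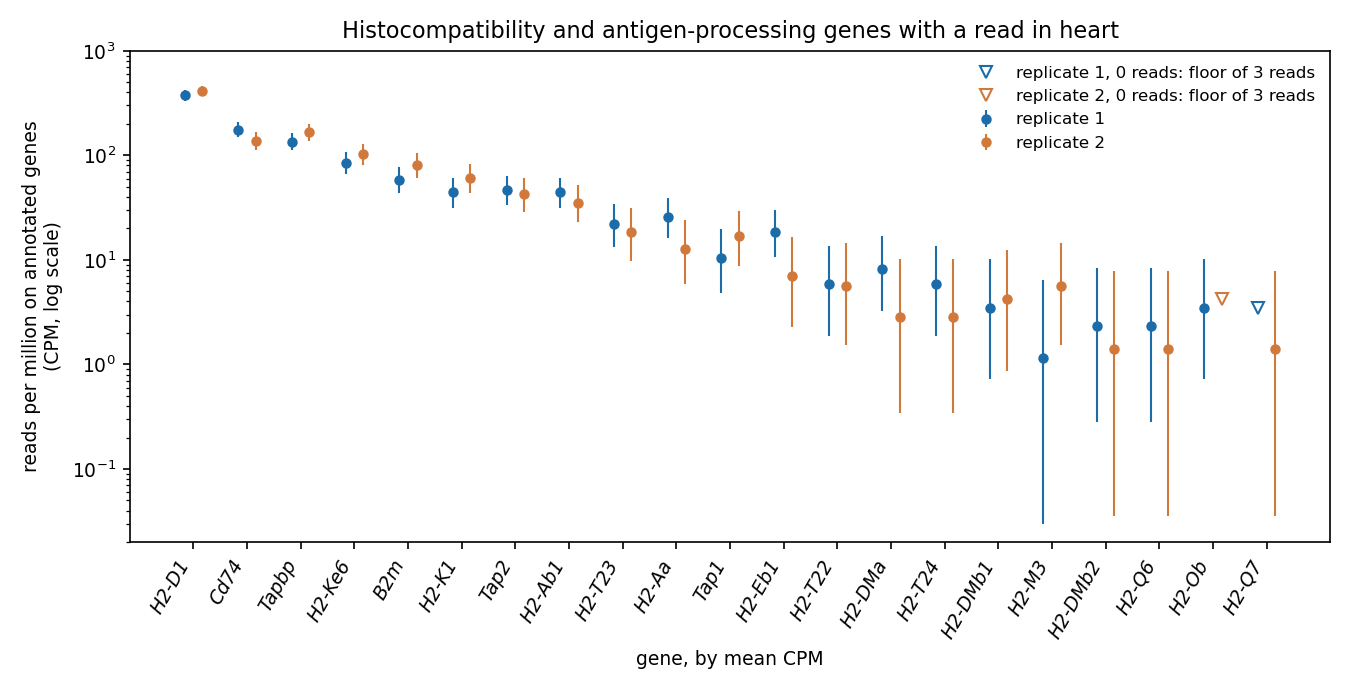
CPM (log scale) of the 21 members with a read, by mean level; points are the 2 libraries, replicate 1 left of replicate 2, bars are exact Poisson 95% intervals, and open triangles mark the limit of 3 reads for a library with 0 reads. H2-D1 stands alone at the top with 374 and 411 CPM, and the last 9 genes lie below 10 CPM in both libraries.

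The classical heavy chains were unequal. H2-D1 (ENSMUSG00000073411.11, 17:35262730-35267499, plus strand) had 321 reads in replicate 1 and 291 in replicate 2. These are 374 CPM (exact Poisson 95% interval 334 to 417) and 411 CPM (365 to 461), a mean of 392 ± 26.6 CPM, which ranked it 339th of 15848 genes with a read. H2-K1 (ENSMUSG00000061232.16, 17:33996017-34000347, minus strand) had 38 and 43 reads, 44.2 CPM (31.3 to 60.7) and 60.8 CPM (44.0 to 81.8). In both libraries the whole interval of H2-K1 lay below that of H2-D1. H2-D1 made up 89.4% of the reads of both genes in replicate 1 (85.8 to 92.2, Wilson 95% interval) and 87.1% in replicate 2 (83.1 to 90.3). Divided by the mean length of their models, the levels were 189 CPM per kb for H2-D1 and 41.7 CPM per kb for H2-K1. The closest H2-K1 transcript matched 70.3% of an H2-D1 transcript at 88.2% identity. Taken from H2-K1, the match to H2-D1 covered 93.1% of its transcript at 88.2% identity. Copies were called near-identical here at 95% identity over 80% of the length, and both matches are under that identity. Whether reads of either gene were placed on the other was not tested.

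The Q, T and M regions carry non-classical heavy chains, some of which show fixed peptides or no ligand. H2-T23, the gene of Qa-1 that shows leader peptides of other class I chains, had 19 and 13 reads. H2-T23 (ENSMUSG00000067212.8, 17:36029773-36032855, minus strand) thus stood at 22.1 CPM (13.3 to 34.5) and 18.4 CPM (9.78 to 31.4). H2-T22, whose product is seen by some gamma-delta T cells, had 5 and 4 reads, and H2-T24 had 5 and 2 reads. H2-T22 has a near-identical copy, H2-T10, annotated as a polymorphic pseudogene, with a 96.4% match over 99.7% of its length. H2-T10 had 2 and 0 reads, so the split between them is uncertain and their sum was 7 and 4 reads. H2-M3, which shows formylated peptides, had 1 and 4 reads, H2-Q6 had 2 and 1, and H2-Q7, the gene of Qa-2, had 0 and 1. Apart from that of H2-T23, these low counts overlap the limit of 3 reads set by a count of 0, and no order is read from them. All 24 heavy chains together held 391 and 359 reads, of which the classical pair took 359 and 334.

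The partners of the heavy chains were all read. B2m (ENSMUSG00000060802.8, 2:122147686-122153083, plus strand) had 50 and 57 reads, 58.2 CPM (43.2 to 76.7) and 80.5 CPM (61.0 to 104). Its level lay below that of H2-D1 in both libraries, with intervals apart. B2m made up 11.3% of the reads of B2m and the heavy chains in replicate 1 (8.71 to 14.6) and 13.7% in replicate 2 (10.7 to 17.3). Per kb the difference was smaller, with 82.3 CPM per kb for B2m, since its models averaged 0.843 kb, against 2.08 kb for H2-D1. Tapbp (ENSMUSG00000024308.15, 17:33915899-33929292, plus strand) had 116 and 118 reads, 135 CPM (112 to 162) and 167 CPM (138 to 199.7).

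The peptide transporter is a pair of half-transporters made by Tap1 and Tap2, which lie close together on chromosome 17. Tap2 (ENSMUSG00000024339.12, 17:34203527-34216321, plus strand) had 40 and 30 reads, 46.6 CPM (33.3 to 63.4) and 42.4 CPM (28.6 to 60.5). Tap1 had 9 and 12 reads, 10.5 and 16.95 CPM. Tap1 made up 18.4% of the reads of the pair in replicate 1 (9.98 to 31.4) and 28.6% in replicate 2 (17.2 to 43.6), and both intervals end below an equal split. The order held per kb, with 13.4 CPM per kb for Tap2 and 5.11 for Tap1.

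Among the class II genes the invariant chain was far above the chains it escorts. Cd74 (ENSMUSG00000024610.15, 18:60803848-60812652, plus strand) had 151 and 98 reads, 176 CPM (149 to 206) and 138 CPM (112 to 169), against 76 and 39 reads for the 4 class II chains together. It made up 66.5% of the reads of Cd74 and the chains in replicate 1 (60.2 to 72.3) and 71.5% in replicate 2 (63.5 to 78.4). H2-Ab1 (ENSMUSG00000073421.6, 17:34257689-34269419, plus strand), the A beta chain, had 38 and 25 reads, 44.2 CPM (31.3 to 60.7) and 35.3 CPM (22.9 to 52.1). H2-Aa (ENSMUSG00000036594.15, 17:34282744-34287823, minus strand), the A alpha chain, had 22 and 9 reads, 25.6 CPM (16.05 to 38.8) and 12.7 CPM (5.81 to 24.1). H2-Eb1, the E beta chain, had 16 and 5 reads, 18.6 and 7.06 CPM. Per kb, Cd74 stood at 122 CPM and H2-Ab1, the highest of the chains, at 32.2. All 3 of these chains had higher CPM in replicate 1.

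H2-Aa made up 36.7% of the A-pair reads in replicate 1 (25.6 to 49.3) and 26.5% in replicate 2 (14.6 to 43.1). The E alpha gene is silent in the C57BL haplotype and is annotated as the polymorphic pseudogene H2-Ea-ps. It had 1 and 0 reads, beside the 16 and 5 reads of its partner H2-Eb1. Of the peptide editors, H2-DMa had 7 and 2 reads, H2-DMb1 had 3 and 3, H2-DMb2 had 2 and 1, and H2-Ob had 3 and 0. H2-DMb1 and H2-DMb2 match at 95.7% identity over 76.9% of H2-DMb1, just under the length set for near-identical copies.

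H2-Ke6 is a member by its name only: it is Hsd17b8, a dehydrogenase of steroid and fatty acid metabolism that lies in the H2-K region. H2-Ke6 (ENSMUSG00000073422.11, 17:34026033-34028060, minus strand) had 73 and 73 reads, 85.0 CPM (66.6 to 107) and 103 CPM (80.8 to 129.7). The gene Gm20427 overlaps it on the same strand, shares an identical stretch of 41.0% of its transcript and had 82 and 49 reads, so the split between them is uncertain. Without H2-Ke6 the members held 848 and 719 reads, 987 and 1016 CPM. Tapbp likewise shares a strand and place with part of Zbtb22, which had 19 and 12 reads.

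The order of the 10 highest members by CPM was H2-D1, Cd74, Tapbp, H2-Ke6, B2m, H2-K1, Tap2, H2-Ab1, H2-T23 and H2-Aa. Of the 9 pairs of neighbours in this order, H2-D1 and Cd74, and Tapbp and H2-Ke6, had intervals that lay apart in both libraries. The intervals of the other 7 pairs overlapped in both libraries. Divided by length, H2-D1 (189 CPM per kb) and Cd74 (122) kept the first places, H2-Ke6 (95.8) and B2m (82.3) came before Tapbp (58.2), and Tap2 (13.4) stood at place 10.

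Between the libraries no member passed the test of a difference. A gene was tested when both libraries together held at least 10 reads, by an exact binomial test, two-sided, of its reads given the totals of both libraries. It was called at an adjusted p below 0.05, with Benjamini-Hochberg adjustment over all 9334 genes tested, and a fold of at least 2. Of all genes tested 0.321% were called, and of the 12 members tested 0 were called. The count was also 0 at an unadjusted p below 0.05, where the background was 8.53%. The smallest adjusted p among the members by this exact test was 0.638. The log2 ratio of replicate 1 over replicate 2 was above 0 for 6 members and below 0 for 6, with a median of -0.0045, against -0.05 over all genes tested, of which 44.9% were above 0. The other 9 members with a read had fewer than 10 and were not tested.

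**Figure D2:**
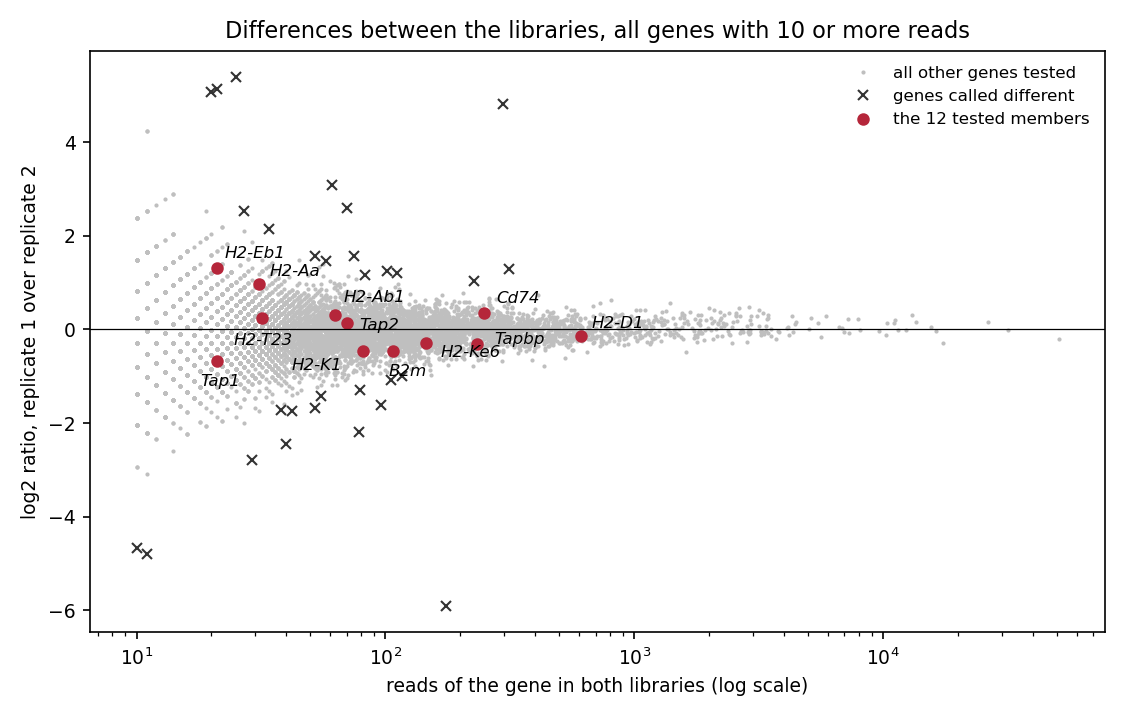
Log2 ratio of replicate 1 over replicate 2 against the reads of the gene in both libraries (log scale) for the 9334 genes tested. The 12 members (filled circles) lie within the cloud of the other genes, with H2-Eb1 at 1.31 and H2-Aa at 0.96 the highest, and none is among the 30 called genes (crosses).

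The ratios of the tested members are given by class. The classical heavy chains had log2 ratios of -0.14 for H2-D1 (exact 95% interval of the fold 0.773 to 1.07) and -0.46 for H2-K1 (0.458 to 1.15). B2m stood at -0.47 (0.484 to 1.08), Tapbp at -0.30 (0.621 to 1.06), Tap1 at -0.68 (0.230 to 1.60) and Tap2 at 0.13 (0.667 to 1.83). The class II genes had log2 ratios of 0.34 for Cd74 (0.978 to 1.65), 0.31 for H2-Ab1 (0.736 to 2.16), 0.96 for H2-Aa (0.891 to 4.97) and 1.31 for H2-Eb1 (0.923 to 9.20). H2-T23 was at 0.25 (0.564 to 2.65) and H2-Ke6 at -0.28 (0.587 to 1.16). Each of these intervals includes a fold of 1.

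Set against the class I heavy chains within each library, the class II chains made up 76 of 467 reads in replicate 1, or 16.3% (13.2 to 19.9), and 39 of 398 reads in replicate 2, or 9.80% (7.25 to 13.1). Fisher's exact test gave a p of 0.00649, and 0.0649 after adjustment over the 10 shares compared, so the difference did not pass the threshold. The other 9 shares had p-values by Fisher's exact test from 0.116 to 0.408 before adjustment. Resident macrophage markers had 449 reads in replicate 1 and 299 in replicate 2, with 11 of the 12 read and Fcgr1 at 0. In CPM these are 523 and 422. Of the 10 macrophage markers tested none was called, against 0.321% of all genes tested. Their log2 ratios were above 0 for 7 and below 0 for 3, with a median of 0.08. The lysozyme gene Lyz2 (200 and 111 reads) and C1qa (66 and 29), a complement component made by macrophages, had higher CPM in replicate 1. The receptor gene Csf1r (34 and 41 reads) and the scavenger receptor gene Cd163 (10 and 13) had higher CPM in replicate 2, and C1qb (45 and 34) and C1qc (42 and 36) differed little. Dendritic cell markers had 22 and 13 reads, of which Zbtb46 took 19 and 10, while Itgax, Xcr1, Cd209a and Siglech were at 0. B cell markers had 12 and 14 reads and T cell and NK cell markers 1 and 8, with Cd3e, Cd8a and Klrb1c at 0. The part of these cells in the class II share was not tested, and in tissue RNA more cells of a type and more RNA per cell cannot be told apart.

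The wider pathway was followed through genes that are not members. Of the 6 loading helpers, which fold class I chains and trim or load peptide, 5 were tested. None was called, against 0.321% of all genes tested. Hspa5, the chaperone BiP, had 1291 and 799 reads and an adjusted p of 7.03e-08 by the exact binomial test, but its log2 ratio of 0.41 is under 2-fold. Calnexin (Canx) had 145 and 121 reads. Of the 6 immunoproteasome and activator genes, all tested and none called, the activator subunits Psme1 (68 and 54 reads) and Psme2 (61 and 42) were highest.

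The induced catalytic subunits were below their constitutive counterparts. Psmb8 made up 19.1% of the reads of Psmb8 and Psmb5 in replicate 1 (13.3 to 26.7) and 26.8% in replicate 2 (19.5 to 35.7). Its mean over the libraries of 22.9% was 12.5% on Known models only and 13.1% without Genomic models, the model classes described below. Psmb9 made up 5.53% of Psmb9 and Psmb6 (3.26 to 9.23) and 2.21% (0.863 to 5.54), and Psmb10 made up 31.1% of Psmb10 and Psmb7 (21.7 to 42.3) and 44.6% (33.2 to 56.7). The last interval reaches above an equal split.

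Among 9 genes of class II processing, which cut antigens and the invariant chain or turn over class II molecules, the cathepsins Ctsd (1781 and 1524 reads) and Ctsb (1108 and 924) were highest. The others had at most 119 and 113 reads (Ctsl), and Ctss, Ifi30 and March1 had too few reads to be tested. Cathepsin S (Ctss), the main protease of the invariant chain in antigen-presenting cells, had 5 and 4 reads. Among the 12 transcription factors listed for these genes, Nfyc, a subunit of the CCAAT-binding factor, had 23 and 26 reads. Ciita and Nlrc5, the master regulators of class II and class I genes, had 0 reads in both libraries, which allows up to 3.49 and 4.24 CPM. Among 12 interferon-induced genes Gbp2 (26 and 21 reads) and Irgm1 (17 and 14) were highest, and among 7 genes of the class I fold outside the locus Hfe (73 and 48) and Fcgrt (66 and 51). Of these 4 lists 6, 6, 10 and 3 genes were tested, and none was called. Over all genes tested 0.321% were called, so a count of 0 in lists this short says little.

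Promoters of 4 members are shown to set the class I genes H2-K1 and B2m beside the class II genes H2-Aa and H2-Eb1. They are from RefSeq (GRCm38.p6), from 250 bases before to 50 after the annotated start, and 34 of the 39 members had such a window, 37 windows in all. Class I promoters are known for an NF-kB site and an interferon-stimulated element, and class II promoters for a cAMP-like element next to an inverted CCAAT box. Both strands were searched for the core of the interferon-stimulated element, written GAAANNGAA, and for the core of the NF-kB site, written GGGATTCCC. The cAMP element was written TGACGTCA, its own reverse complement. The CCAAT box was searched as those 5 letters and the TATA box as TATAAA, each on both strands. No motif holds another, and matches are in capitals. In the printed H2-K1 window CCAAT and TATAAA begin 8 and 35 bases after the annotated start, not before it. H2-K1 lies at 17:34000298-34000597 (minus strand), B2m at 2:122147437-122147736 (plus), H2-Aa at 17:34287774-34288073 (minus) and H2-Eb1 at 17:34305617-34305916 (plus).
H2-K1 promoter: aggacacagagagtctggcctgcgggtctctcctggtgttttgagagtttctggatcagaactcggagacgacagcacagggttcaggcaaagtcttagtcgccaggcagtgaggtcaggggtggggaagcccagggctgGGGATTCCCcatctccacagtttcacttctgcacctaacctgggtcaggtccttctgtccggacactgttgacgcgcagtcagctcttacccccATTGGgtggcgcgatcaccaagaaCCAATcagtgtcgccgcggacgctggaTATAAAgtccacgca
B2m promoter: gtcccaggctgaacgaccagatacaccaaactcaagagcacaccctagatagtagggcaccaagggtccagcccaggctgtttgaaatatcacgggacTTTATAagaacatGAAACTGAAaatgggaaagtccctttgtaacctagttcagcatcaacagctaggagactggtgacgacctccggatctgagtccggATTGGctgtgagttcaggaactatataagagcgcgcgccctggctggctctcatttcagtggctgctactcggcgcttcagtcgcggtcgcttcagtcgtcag
H2-Aa promoter: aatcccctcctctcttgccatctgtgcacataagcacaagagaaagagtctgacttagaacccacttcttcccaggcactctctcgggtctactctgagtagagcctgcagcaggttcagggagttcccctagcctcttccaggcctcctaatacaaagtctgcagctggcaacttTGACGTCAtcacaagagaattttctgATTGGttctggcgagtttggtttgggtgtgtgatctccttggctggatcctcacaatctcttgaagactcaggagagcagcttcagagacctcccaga
H2-Eb1 promoter: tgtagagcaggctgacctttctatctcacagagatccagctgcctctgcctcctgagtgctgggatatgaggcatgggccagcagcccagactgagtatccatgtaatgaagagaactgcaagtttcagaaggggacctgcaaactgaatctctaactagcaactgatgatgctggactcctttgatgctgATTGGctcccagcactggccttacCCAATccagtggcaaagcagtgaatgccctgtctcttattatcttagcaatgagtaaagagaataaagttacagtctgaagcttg

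CCAAT in either direction was found in 33 of the 37 windows of members, against 37.4% of the 32851 windows of all genes. GGGATTCCC was found in 5 windows, those of H2-D1, H2-Q6 and H2-Q7 and both of H2-K1, against 0.353% of all windows. GAAANNGAA was in 3 windows (B2m, H2-T22 and H2-T23), against 8.56%, and TGACGTCA in that of H2-Aa alone, against 1.79%. GAAANNGAA has 3 A bases before its gap and 2 after it, so a core with 2 before and 3 after is missed on both strands. The printed H2-K1 promoter has such a stretch in lower case after its GGGATTCCC. The count for GAAANNGAA therefore covers that written form only. It cannot decide which members lack the element, or whether members hold it more often than all genes. TATAAA in either direction was in 17 windows, against 13.6%. The B2m and H2-T3 windows hold it only on the opposite strand, as TTTATA. Genes of a duplicated family share sequence, some genes have 2 overlapping windows, and a match is not a site in use. Of the genes that hold GGGATTCCC, H2-D1 had 321 and 291 reads, H2-K1 38 and 43, H2-Q6 2 and 1, and H2-Q7 0 and 1. A link between a motif and the reads of a gene was not tested.

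Long reads join the exons of a molecule, so the models of each member could be counted. Models with an annotated intron chain are classed Known, and ISM models hold only a part of such a chain. NIC models join annotated splice sites in a new way, NNC models have at least 1 unannotated splice site, and Genomic models look like unspliced RNA. Of the member reads 80.7% in replicate 1 and 82.2% in replicate 2 were on Known models, against 76.0% and 75.7% over all annotated genes. NNC models took 7.60% and 5.81%, against 3.15% and 3.57%, and Genomic models 1.30% and 1.89%, against 5.13% and 5.25%. The NNC reads came mainly from H2-D1 (49 of 70 and 35 of 46), and without it the members had 3.50% and 2.20%. The reads lay on 29 annotated models, 23 of them in both libraries, and on 131 unannotated ones, of which 26 were in both and 92 had a single read.

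**Figure D3:**
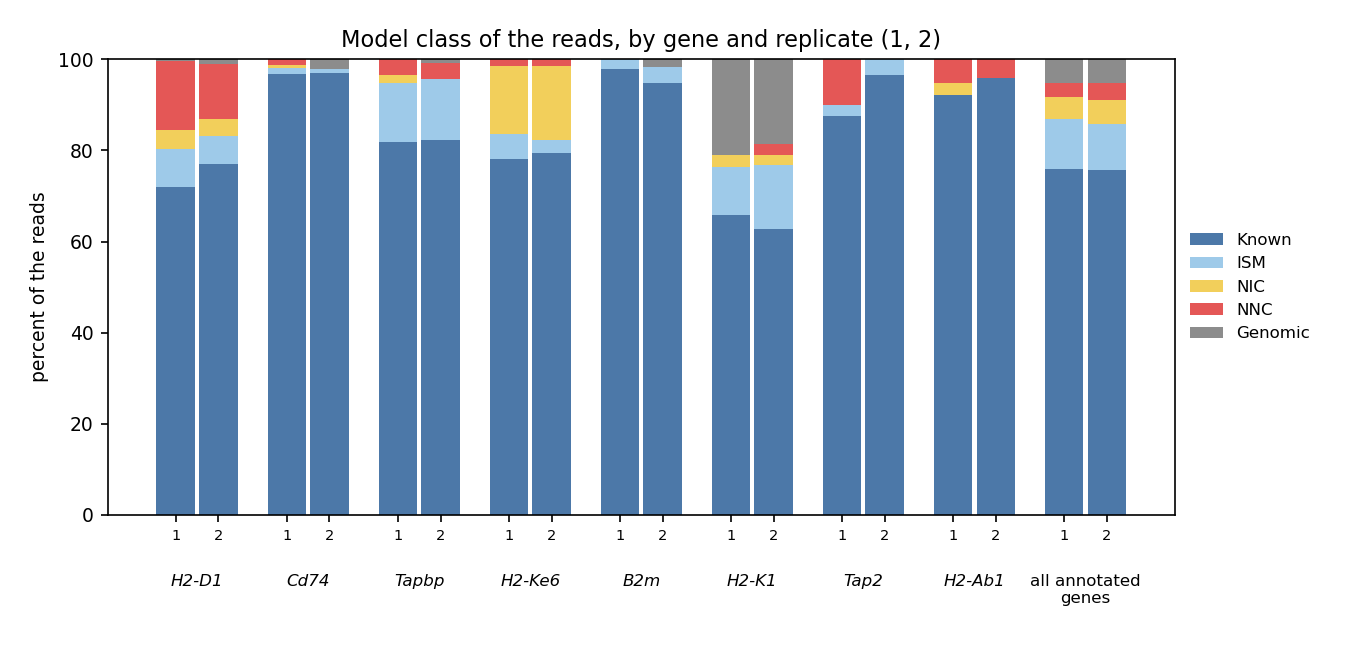
Percent of the reads of each member with at least 20 reads in each library by model class, replicate 1 left of replicate 2, with all annotated genes at the right. NNC reads were 15.3% and 12.03% of the H2-D1 reads, and Genomic reads 21.1% and 18.6% of the H2-K1 reads.

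Among the 4651 genes with at least 20 reads in each library, the share of Known reads differed between the libraries for 0.129% and that of Genomic reads for 3.78% (Fisher's exact test, adjusted p below 0.05). Of the 8 members among them 0 passed this test in either. Cd74 (96.7% and 96.9% Known), B2m (98.0% and 94.7%) and H2-Ab1 (92.1% and 96.0%) were almost wholly on annotated chains. H2-K1 had the lowest Known share of the 8 (65.8% and 62.8%). A single-exon Genomic model of 90 bases at the 3′ end of H2-K1 (17:33996017-33996106) took 8 of its 38 reads in replicate 1 and 8 of 43 in replicate 2.

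H2-D1 was read mostly as H2-D1-202, with 231 and 224 reads. An unannotated NNC model with the same intron chain in both libraries had 35 and 18 reads, or 10.9% and 6.19% of the H2-D1 reads. It differed from H2-D1-202 at exon 3, which encodes the second of the 2 domains that form the peptide groove, printed above. The exon began at 35263953 in place of 35263839, which leaves out the 114 bases in capitals and keeps 162 of 276. These 114 bases are 38 codons, the reading frame goes on without an in-frame stop, and the coding length is 972 in place of 1086 bases. The last 2 capitals are AG, the usual end of an intron. Over the H2-D1 reads that join that exon 2 end to either start of exon 3, the later start was used in 35 of 305 reads of replicate 1, or 11.5% (8.37 to 15.5), and in 20 of 282 of replicate 2, or 7.09% (4.64 to 10.7), with a p of 0.0883 by Fisher's exact test. This model was singled out after its values were seen. Of the 4651 genes with 20 reads in each library, 200 (4.30%) had an NNC share at least as high as that of H2-D1 in both. Whether the reads of the model come from the CAST copy was not tested.

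Other unannotated H2-D1 models were rarer. One that keeps the last intron had 8 and 5 reads. An NNC model with a longer exon 5 that skips exon 6, both of the transmembrane and tail part, had 3 and 9 reads.

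**Figure D4:**
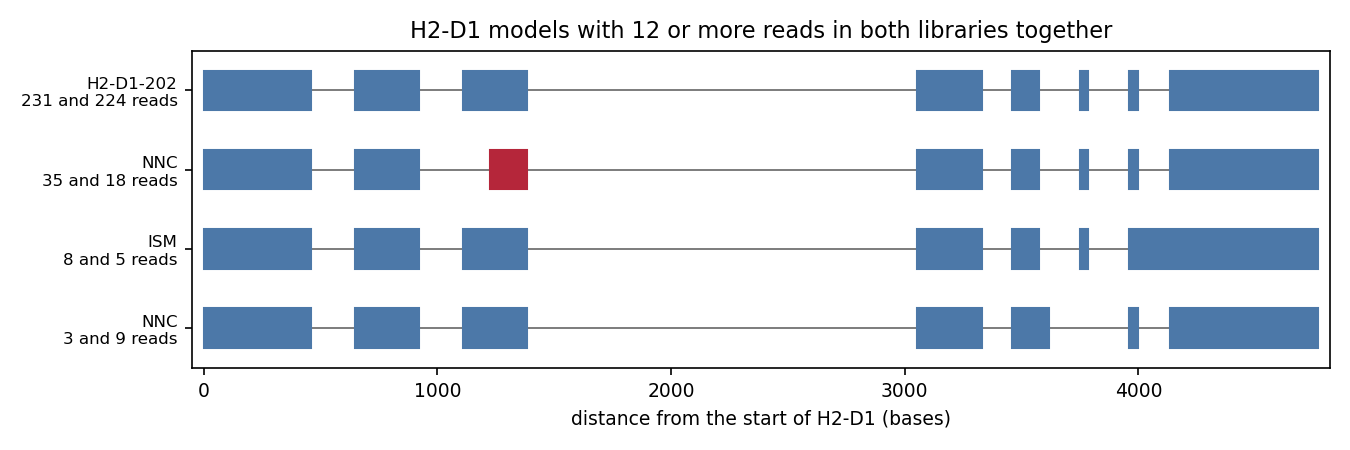
Exons (boxes) of the H2-D1 models with at least 12 reads in both libraries together, by distance in bases from the start of the gene, with the reads of replicate 1 and replicate 2 at the left. The second model differs from H2-D1-202 only in the shorter exon 3, drawn in red, and had 35 and 18 reads.

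The test of isoform use needed 20 reads on Known models per library and a leading model that held less than 95% of them, and 4 members met this. Over 1037 such genes 0.0964% differed between the libraries (Fisher's exact test, adjusted p below 0.05), and of the 4 members 0 passed, with unadjusted p-values from 0.238 to 1. Cd74 was read as Cd74-201, the shorter p31 form, in 92 of 146 annotated reads of replicate 1, or 63.0% (54.9 to 70.4), and in 61 of 95 of replicate 2, or 64.2% (54.2 to 73.1). The rest were Cd74-202 (54 and 34 reads), the p41 form, whose extra coding exon of 192 bases encodes a thyroglobulin-type domain that inhibits cathepsins.

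Tapbp was split evenly between Tapbp-206, with 48 and 49 reads, and Tapbp-201, with 47 and 44. Besides the start of the transcript these differ by the 3 coding bases in capitals at the start of exon 7, printed above. Tapbp-206 held 50.5% of the annotated reads in both libraries (40.6 to 60.4 and 40.7 to 60.3). H2-K1 was likewise split between H2-K1-201, with 13 and 14 reads, and H2-K1-205, with 12 and 13, which lacks the 27 coding bases in capitals, part of the cytoplasmic tail. H2-K1-201 held 52.0% (33.5 to 70.0) and 51.9% (34.0 to 69.3).

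H2-Ke6 was read mainly as H2-Ke6-201 (53 and 49 reads, 93.0% and 84.5% of its annotated reads), and an NIC model whose first exon ends at another splice site had 10 and 8 reads. For B2m, Tap2, H2-Ab1, H2-Aa and H2-T23 a single annotated model held at least 20 reads. These were B2m-201 (49 and 54 reads), Tap2-201 (35 and 29), H2-Ab1-201 (35 and 24), H2-Aa-201 (19 and 8) and H2-T23-201 (13 and 10). The 3 reads of H2-Q6 were all on 1 NNC model, 2 in replicate 1 and 1 in replicate 2.

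**Figure D5:**
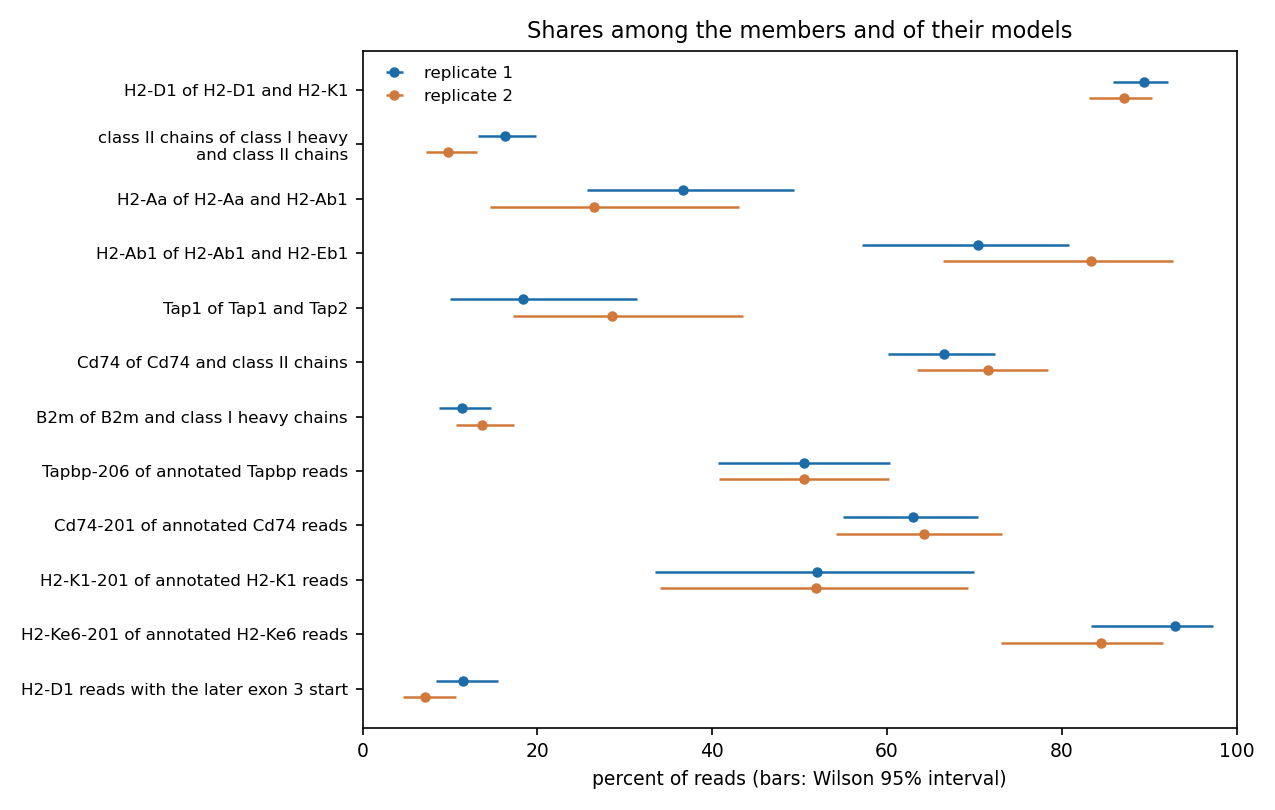
Shares of reads in percent with Wilson 95% intervals, replicate 1 above replicate 2, for pairs and classes of members, for the leading annotated model of 4 members and for the later exon 3 start of H2-D1. The intervals of the 2 libraries overlap in every line except that of the class II chains, where 13.2 to 19.9 and 7.25 to 13.1 lie apart.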

How the data were processed

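The authors deposited, for each library on its own, raw counts of long reads by transcript model. Per the file headers and the text beside them, reads were aligned to mm10, and TALON assigned them to GENCODE M21 models and to models that it added. Models without a read are not listed and were taken as 0. The aligner, its version and any filters are not given in the sources used here. Model lengths, exon numbers and coordinates are those the authors deposited. The members and gene lists were chosen with earlier results of these data known.

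A gene's reads are the sum over its models. Spike-in reads do not enter the CPM, whose denominator is the reads of annotated genes. Tests were the exact binomial and Fisher's exact tests named in the text, two-sided, with Benjamini-Hochberg adjustment over all genes tested, or over the 10 shares. The quasi-likelihood test of edgeR could not be fitted with 1 group of 2 libraries. Log2 ratios had 0.5 reads added to each count, CPM intervals are exact Poisson and shares have Wilson intervals, all at 95%. Unannotated models were matched between libraries by intron chain. Copies were compared with BLAST 2.17.0. Scaling factors came from edgeR 4.0.16 and DESeq2 1.42.0 in R 4.3.3, and the rest from Python 3.11.15 with SciPy 1.17.1 and pandas 2.3.3. On simulated libraries of 9334 genes, drawn with counting error only, the binomial test was run with 100 genes changed 2-fold and 100 changed 4-fold. With the fold minimum it called 13% and 64% of them, and by an adjusted p below 0.05 alone 22% and 64%.

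Every member with a read was named with its reads, members without one were counted by region, and the 10 with the highest mean CPM were given with their position, reads and CPM intervals. Models were described at 20 or more reads in both libraries together. Genes outside the members were named where a share turns on them or as the 2 highest of their list. Ctss, Ctsl, Ifi30, March1, Ciita, Nlrc5 and H2-Ea-ps, the models of H2-D1 with fewer reads, those of H2-Ke6 and H2-Q6, and the named marker genes were added after their values were seen. Alternatives covered scaling, read minimums, model classes, the fold minimum, added reads, preset variation, length and the members themselves. Those with reads of an overlapping gene added, and the exon 3 share of H2-D1 in each library alone, were chosen after seeing the data. The readme texts were not used for values. The values of 1 gene of the pathway lists are not reported here.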

Additional observations from a re-analysis of the deposited data

Results flagged for a closer look

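Reads on unannotated genes that run antisense to members were outside the comparisons above. Over H2-D1 such genes held 1 read in replicate 1 and 7 reads in replicate 2, and over H2-K1 they held 3 and 4 reads. The counts of 7 and 4 in replicate 2 are above the 3 reads that a count of 0 allows, which marked them for a closer look. Both counts are sums over separate models, with 1, 1 and 5 reads over H2-D1 and 3 and 1 over H2-K1. No single antisense model over H2-K1 was thus above 3 reads. Over the other members at most 2 antisense reads were found in a library. Between the first and the last member on chromosome 17 (17:33915899-37483552) antisense unannotated genes held 70 reads on 30 genes in replicate 1 and 49 reads on 23 genes in replicate 2, and intergenic ones 11 and 12 reads.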

How the results depend on the processing

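The count of 0 members called between the libraries was the same under all 10 alternatives run for it. Dropping the fold minimum, or adding 1 read in place of 0.5, left each p-value unchanged, so the 0 there was fixed in advance. A minimum of 20 reads kept the same 12 members, none with an unadjusted p below 0.05, so it could not call one either. The counts of 0 members in isoform use (with at least 10 reads, and with all spliced models) and in Known share and Genomic share (with at least 10 reads) were also the same, as was the 0 of 10 shares called (on Known models only, and without Genomic models). With at least 10 reads, isoform use was tested for the same 4 members with the same unadjusted p-values, so that 0 was fixed too. Over all genes the count of 30 called was 15 on Known models only, 107 with no fold minimum, and 12 and 4 by edgeR's exact test with a preset variation of 0.1 and 0.2. Isoform use was called for 7 genes in place of 1 with all spliced models. The summed level of 1095 CPM was 1177 on Known models only, 1137 without Genomic models and 1001 without H2-Ke6, and the libraries alone gave 1072 and 1119. In the settings by model class the CPM denominator was limited to the same models. Members had a larger Known share than all annotated genes (80.7% and 82.2% against 76.0% and 75.7%) and a smaller Genomic share. Their level in these settings therefore rises by construction. Of the log2 ratios of the 10 highest members, that of Tap2 (0.13) was -0.018 on Known models only, and that of H2-Ke6 (-0.28) was 0.064 with the reads of Gm20427 added. The cause of the other moves was not tested, beyond the fewer reads or the added reads that define each setting. The adjusted p of the class II share by Fisher's exact test ranged from 0.0638 without Genomic models to 0.0753 on Known models only. DESeq2 size factors put the median log2 ratio of all genes at 0.03 and that of the 12 tested members at 0.07. No paired analysis was possible because there was 1 group of 2 libraries. Leaving out a library leaves no comparison between libraries, so that alternative gave levels and shares only. Depth limits the Q, T and M regions other than H2-T23, and the peptide editors, where counts of 0 to 7 reads allow no order.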

Other observations

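Genes named H2- of other types, all annotated as pseudogenes, numbered 11 and held 3 reads in replicate 1 and 3 in replicate 2. H2-T10 had 2 and 0 reads, H2-Ea-ps 1 and 0, H2-K2 0 and 2, and H2-Q5 0 and 1, and the other 7 had none.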
